A study of Arabidopsis thaliana with 36 samples.

Results

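In leaf 6 of the early bolting atx1,3,4 triple mutants (TMs), 150 genes stood above wild type (WT) 2 days after bolting and below it 2 days later. They were selected on these measured values from the 19437 genes of the table. The level x of a gene in a group was the mean of log2(FPKM + 1) over its 3 libraries, where FPKM is fragments scaled to transcript length and library depth. The TM difference was the mean of x in TM1 and TM2 minus x in WT. A gene was kept when this difference was at least 0.5 at T2 and at most -0.5 at T4, with the same sign in both isolates at both time points. The rule was met by 0.772% of the genes. The opposite rule, lower at T2 and higher at T4 by the same limits, was met by 49 genes or 0.252%. The balance of the rules depended on the scaling, with 115 members against 66 opposite genes after median ratio scaling and 111 against 73 after quantile normalization. At T2 alone, 15.2% of all genes met the limit upward and 6.60% downward, and at T4 alone 7.27% met it downward and 7.34% upward. T2 and T4 differences therefore describe how the members were chosen and carry no test, while the T0 and T6 libraries were not used by the rule and could be tested.

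Several members belong to the responses to abscisic acid (ABA), cold and low sulfur. ABA accumulates in dehydrating and aging leaves, and its receptors inhibit PP2C phosphatases, which releases protein kinases that activate transcription factors of the target genes. Several PP2C genes are themselves targets of ABA and provide feedback on the pathway. NAC transcription factors such as RD26 and NAP act downstream of ABA, and NAP promotes leaf senescence. The LSU and SDI genes are induced when sulfur is short.

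The study compared bolting and vegetative plants of the same age to follow gene expression in a mature leaf around bolting. WT was Col-0 with no mutation at the ATX loci and was still vegetative, apart from a plant that had bolted by T6. TM1 and TM2 are separate isolates that carry the T-DNA insertions SALK_149002 in atx1, GABI_128H01 in atx3 and SALK_060156 in atx4, genes of H3K4 methyltransferases of the trithorax family. They came from a cross of atx1 atx3 with atx3 atx4 plants, so that 2 isolates stand for 1 mutant genotype. TM plants came from a cohort whose bolting marked T0, and T2, T4 and T6 followed at intervals of 2 days. All groups had the same soil, the same long days of low light intensity and a morning harvest, and no group was treated. In each of the 12 groups, leaf 6 of 10 plants was ground together and the powder was divided into 3 libraries, A to C. The p-values below therefore rest on repeated libraries from 1 pool, not on separate plants, and any effect of the plants or the harvest of a pool cannot be told apart from genotype and time.

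The libraries held 4407618 to 11714474 reads each. At T0, ATX4 stood at 4.6 to 5.95 FPKM in WT, 2.08 to 2.48 in TM1 and 1.54 to 2.36 in TM2. It lay below WT in both isolates at T0 and T4, and overlapped WT in TM2 at T2 and in both isolates at T6. ATX1 overlapped WT at T0 and T2 and lay below it at T4 and T6, at 3.25 to 3.68 FPKM in WT, 1.64 to 2.27 in TM1 and 1.61 to 3.12 in TM2 at T6. ATX3 overlapped WT at T0 and T6 and lay above it at T2 and T4, at 2.41 to 3.39 in WT, 3.99 to 6.11 in TM1 and 3.95 to 5.45 in TM2 at T2. Reads were counted from 3′ directed libraries and their position relative to the insertions was not examined, so these levels do not check the genotypes. The summed FPKM of 5 mesophyll markers was 13684 to 14412 in WT at T0 and 5262 to 5431 at T4, far above any other marker list, which fits a leaf. No marker of shoot meristem, flower organs or seeds was among the listed genes. In whole leaves, fewer cells of a type and less RNA per cell cannot be told apart.

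The 250 bases before the annotated gene start were read from the RefSeq TAIR10.1 genome for each of the 150 members and for 19331 of all listed genes, and 6 motifs were searched on both strands. ACGTG, the core of the ABA response element, was present in 54 members (36.0%) and in 23.3% of all genes. It includes the G-box CACGTG, which was present in 11.3% of members and 7.44% of all genes. CCGAC, the core of the dehydration response element, was found in 19.3% against 13.2%, and the heat shock element core GAANNTTC in 14.7% against 9.39%. GAGAC, a core of sulfur responsive elements, was found in 24.0% against 25.3%, and the evening element AAATATCT in 8.00% against 5.03%. These shares are descriptions of the windows and do not show binding. The windows of the ABA related members RD26, PP2CA and HAI2 are shown because their values lead the results below. All lie on the minus strand and are written 5′ to 3′, with the ABA and dehydration element cores named above and their reverse complements in capitals.
RD26 (chr4:13709171-13709420): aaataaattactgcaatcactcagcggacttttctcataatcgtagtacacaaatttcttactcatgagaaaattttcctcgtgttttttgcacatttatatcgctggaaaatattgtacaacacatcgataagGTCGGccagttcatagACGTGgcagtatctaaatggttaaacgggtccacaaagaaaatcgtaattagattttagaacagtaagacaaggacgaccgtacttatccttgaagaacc
PP2CA (chr3:3585851-3586100): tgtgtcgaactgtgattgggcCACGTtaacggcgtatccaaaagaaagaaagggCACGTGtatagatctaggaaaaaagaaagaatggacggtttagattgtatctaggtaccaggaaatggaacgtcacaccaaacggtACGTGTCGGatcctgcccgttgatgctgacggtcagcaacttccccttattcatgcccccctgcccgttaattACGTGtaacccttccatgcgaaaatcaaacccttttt
HAI2 (chr1:2282829-2283078): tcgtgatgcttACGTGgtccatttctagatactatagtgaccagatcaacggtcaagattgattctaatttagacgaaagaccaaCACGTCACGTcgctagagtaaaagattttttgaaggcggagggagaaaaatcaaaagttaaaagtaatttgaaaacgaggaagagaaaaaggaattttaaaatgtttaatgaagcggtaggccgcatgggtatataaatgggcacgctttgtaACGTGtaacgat
Neither core was present in the corresponding window of RCI2B. Of the members, 6 were annotated microRNA genes, or 6.82% of the 88 listed, where the rule kept 0.772% of all genes. All but MIR157c had groups with no library above 3 reads. Of the 12 groups these were 12 for MIR166b, 10 for MIR156b, 9 for MIR844, and 3 each for MIR164b and MIR834. This share and those of gene families below rest on the T2 and T4 values of the rule. Every family counted held a member, so nothing is read from these shares. The mature products of MIR157c and MIR156b are shown with bases 2 to 8 in capitals. Both are of the miR156 and miR157 family that acts on SPL transcription factors of the juvenile to adult transition.
ath-miR157c-5p (chr3:6244673-6244693): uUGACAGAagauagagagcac
ath-miR156b-5p (chr4:15074945-15074964): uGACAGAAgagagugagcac
The same run of UGACAGA, shifted by 1 base, opens both. The libraries counted reads at the loci of the precursors and did not measure mature microRNAs.

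In the members as a group, the median TM difference on the log2(FPKM + 1) scale began at 0.14 (T0), reached 0.71 (T2), stood at -0.69 (T4) and ended at -0.38 (T6). Over all genes the 4 medians were 0.04, 0.09, 0.00 and 0.07. In 82 members all 6 TM libraries lay above the 3 WT libraries at T2, in 81 all lay below them at T4, and 58 met both. The rule used these libraries, and the share over all genes was not counted at T2 and T4. The counts therefore describe the selection and nothing is read from them. Each isolate alone was at least 0.5 above WT at T2 in 96 members and at least 0.5 below at T4 in 78. In 50 members this held for both isolates at both time points, and in 5 members an isolate lay within 0.1 of WT at T2 or T4. The size of the difference thus varied between isolates for many members even though its sign was fixed by the rule.

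**Figure D1:**
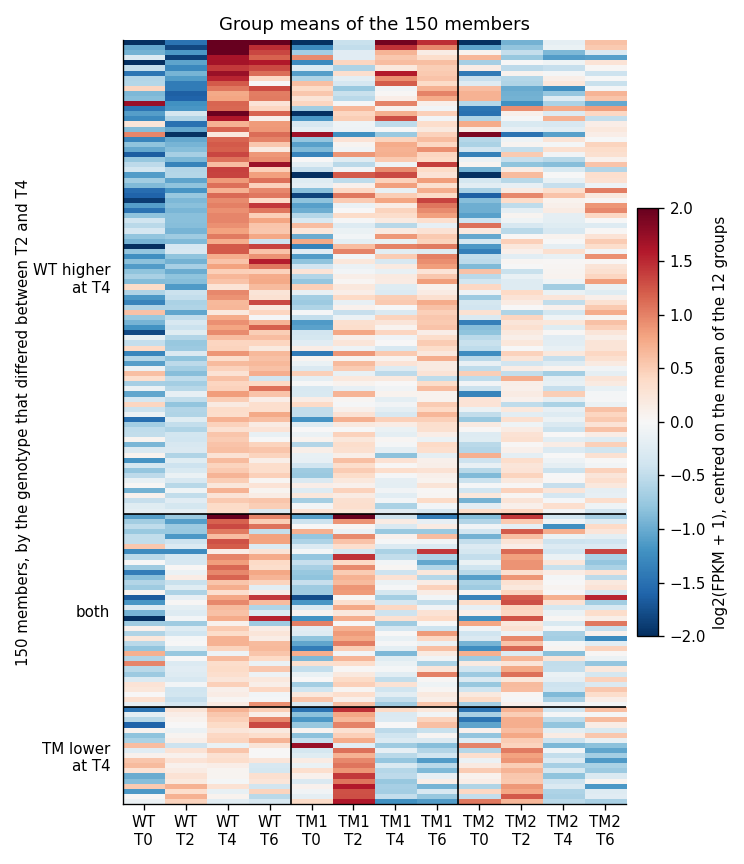
Rows are the 150 members, in blocks where WT was higher at T4 than at T2 (93), where in addition the TM mean was lower (38) or where the TM mean alone was lower (19), and columns are the means of the 12 groups; color gives log2(FPKM + 1) centred on the mean of the gene over the groups. In the top block the WT columns pass from blue at T2 to red at T4, and in the lowest block the TM columns pass from red at T2 to blue at T4.

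The members are described next by the genotype whose level differed between T2 and T4, times that the rule used. The median member was higher in WT at T4 than at T2 by 1.13 on the log2 scale, whereas in the TM mean the median of T4 minus T2 was -0.37. In 93 members (62.0%) WT alone differed by 0.5 or more, in the direction of higher levels at T4. In 38 members (25.3%) WT was higher and the TM mean lower at T4 by at least that amount, and in 19 (12.7%) the TM mean alone was lower. Over all genes, WT was higher at T4 by 0.5 or more in 14.6% and the TM mean lower in 7.18%. For the members these shares were 87.3% and 38.0%, but T2 and T4 chose the members and nothing is read from the contrast. The WT level was highest at T4 in 93 members and at T6 in 44. The TM level was highest at T2 in 70 members and at T6 in 54. The rule favors a WT peak at T4 and a TM peak at T2. The share over all genes was not counted, so nothing is read from these counts either. From T0 to T2, which uses 1 time point of the rule, the median step was 0.00 in WT, 0.78 in TM1 and 0.59 in TM2.

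**Figure D2:**
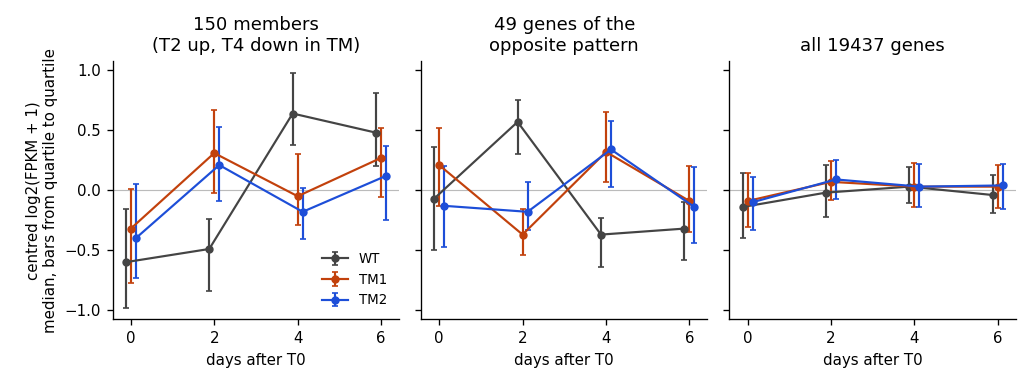
Median level on log2(FPKM + 1), centred on the mean of each gene, against days after T0 for WT, TM1 and TM2, with bars from quartile to quartile over genes, for the 150 members, the 49 genes of the opposite pattern and all 19437 genes. In the members WT passes from -0.60 at T0 and -0.49 at T2 to 0.64 at T4 and 0.48 at T6, whereas TM1 stands at 0.31 and TM2 at 0.21 already at T2.

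**Figure D3:**
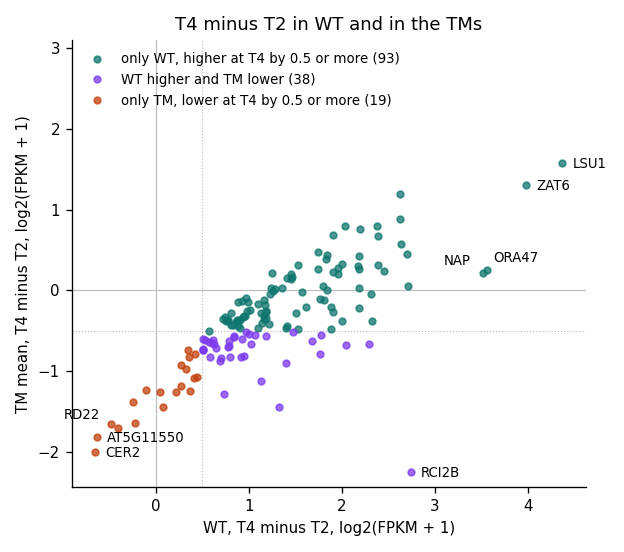
For each member, the level at T4 minus that at T2 in WT (x axis) and in the TM mean (y axis), both on log2(FPKM + 1). Most points lie to the right of 0.5, where 131 members had a higher WT level at T4, and fewer lie below -0.5, where 57 had a lower TM level.

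At T0 and T6 the TM difference was tested with limma over all 19437 genes. A gene was called when its adjusted p was under 0.05 in TM1 and in TM2 with the same sign and the mean difference was at least 0.5 on the log2 scale. TM1 and TM2 were compared with the same WT libraries, so their differences are not independent of each other. At T0, 21 members (14.0%) were higher in the TMs, against 5.32% of all genes, and 4 members (2.67%) were lower, against 2.56%. At T6, 28 members (18.7%) were lower, against 2.02% of all genes. No member was higher at T6 by limma, against 2.12% of all genes. At an unadjusted p under 0.05 in both isolates 1 member, TSPO, was higher at T6, and voom on the recovered reads called 0. Without library B of every group the number lower at T6 was 14, without C it was 16, and without A it was 20. Without C, 2 members were lower at T0, against 1.39% of all genes. Of the 21 members higher at T0, 8 were lower at T6, which is 5.33% of the members, while 0.0926% of all genes had both calls.

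The libraries were also counted without a model. All 6 TM libraries lay above the 3 of WT at T0 in 25 members (16.7%), against 8.40% of all genes, and below them in 6 (4.00%), against 4.98%. At T6 they lay below in 54 members (36.0%), against 6.78% of all genes, and above in 1 (0.667%), against 10.6%. The median TM difference at T6 was -0.27 in TM1 and -0.46 in TM2. Of the 150 members, 106 (70.7%) were called at neither time point, against 89.4% of all genes.

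**Figure D4:**
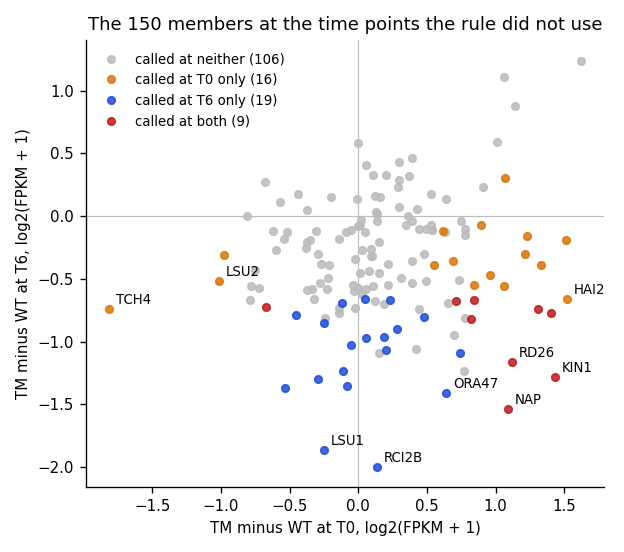
TM difference of each member at T0 (x axis) and at T6 (y axis) on log2(FPKM + 1), colored by the time points at which a member was called. At T6, 119 members lie below 0 and 28 are called lower, and 8 of the called members lie at the lower right, higher at T0 and lower at T6.

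The members also changed over time in libraries outside the rule, where age, bolting and the pool of a time point cannot be told apart. From T0 to T6, 95 members (63.3%) rose in WT, against 18.5% of all genes, and 6 (4.00%) fell, against 11.9%. Without library A of every group 3 fell, against 10.2% of all genes. In the TMs 47 members (31.3%) rose, against 14.7%, and 10 (6.67%) fell, against 8.82%. The median change was 1.09 in WT, 0.57 in TM1 and 0.44 in TM2, and 0.10 to 0.13 over all genes. Between T0 and T6 the difference of the TMs from WT itself moved. It was called downward in 29 members (19.3%), against 1.83% of all genes, and upward in 1 member (0.667%), TCH4, against 0.926%. Without library B the downward count was 18, against 0.813% of all genes. Without any 1 library letter the upward count was 0, against 0.268% to 0.412%. The WT change and the T6 difference share the WT libraries of T6 and are not separate evidence.

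PP2CA (AT3G11410, chromosome 3) encodes a PP2C phosphatase that holds back ABA signaling. At T2 it stood at 75.6, 60.9 and 71.3 FPKM in WT libraries A to C, 200, 212 and 195 in TM1, and 161, 163 and 151 in TM2. At T4 the WT libraries read 266, 288 and 286, TM1 179, 185 and 177, and TM2 105, 107 and 102. The groups did not overlap at either time point, and the ratio of TM to WT means passed from 2.60 to 0.509. The WT mean was 4.04 times as high at T4 as at T2. At T6 the libraries read 198, 192 and 213 in WT, 151, 150 and 144 in TM1 and 151, 126 and 136 in TM2. The T6 differences of -0.43 ± 0.10 (SE) in TM1 and -0.55 ± 0.10 in TM2 had limma adjusted p of 0.00572 and 2.6e-04, but their mean missed the limit of 0.5 and the gene was not called. After median ratio scaling it was, at -0.58.

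HAI2 (AT1G07430, chromosome 1), also an ABA induced PP2C, already stood apart at T0. The WT libraries read 3.58, 3.84 and 2.55 FPKM, TM1 11.6, 12.0 and 8.35, and TM2 12.5, 12.0 and 11.8. It was higher in the TMs at T0 by 1.43 ± 0.12 and 1.61 ± 0.12 on the log2 scale (limma adjusted p = 6.8e-10 and 1.5e-11), or 3.42-fold in the means. At T2 WT stood at 24.3, 18.7 and 23.5 and all 6 TM libraries lay between 29.3 and 44.6. At T4 the WT range of 64.7 to 71.0 overlapped the TM1 libraries of 67.8, 52.9 and 51.1 but not the TM2 libraries, which lay between 22.5 and 28.3. At T6 the differences were -0.31 and -1.0, with limma adjusted p of 0.140 and 4.2e-07, and only TM2 passed, while voom and a fit of the T6 libraries alone called it lower at -0.67 and -0.66. Among other PP2C genes on the list of 20 cold and ABA response genes, HAI1 and HAB1 were higher at T0 and ABI1 was lower at T6, and none met the rule.

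NCED3 (AT3G14440), which encodes the rate limiting enzyme of ABA synthesis, was low at T0 with 2.36 to 3.2 FPKM in WT and 1.37 to 3.34 in the TMs. At T2 the WT libraries read 2.1, 3.2 and 3.52, TM1 5.43, 5.55 and 4.33, and TM2 4.96, 5.23 and 6.28. At T4 WT had 12.9, 11.6 and 11.6, TM1 9.85, 10.8 and 11.1, and TM2 5.65, 6.66 and 4.72. TM levels lay outside the WT range at both times, and most clearly in TM2 at T4. NCED3 was not called at T0 or T6.

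The 4 NAC members RD26, NAP, NAC019 and NAC102 were all higher in the TMs at T0, where 5.32% of all genes were. At T6, 2 of them were lower, against 2.02% of all genes. The 4 members are 5.56% of the 72 listed NAC genes, where the rule kept 0.772% of all genes. T2 and T4 chose them, so nothing is read from this share. RD26 (AT4G27410, chromosome 4), an ABA and dehydration induced NAC factor, read 8.91, 10.2 and 9.13 FPKM in WT at T0, 19.3, 17.1 and 15.7 in TM1 and 24.9, 26.2 and 30.0 in TM2. At T2 WT read 20.0, 21.3 and 19.7, TM1 55.6, 59.9 and 60.2, and TM2 43.8, 47.8 and 38.1. At T4 WT read 140, 135 and 141, TM1 73.3, 67.1 and 61.9, and TM2 42.3, 41.8 and 38.3. No library of a TM lay within the WT range at these times, and the WT mean was 6.82 times as high at T4 as at T2. At T6 WT read 131, 134 and 133, TM1 66.8, 66.0 and 65.4, and TM2 53.1, 52.0 and 52.5. RD26 was higher at T0 by 0.81 ± 0.09 and 1.43 ± 0.09 (limma adjusted p = 3.1e-08 and 4.0e-14), and lower at T6 by differences of -1.0 ± 0.09 and -1.32 ± 0.09 (3.1e-10 and 4.0e-13). With 6 TM and 3 WT libraries there are 84 arrangements. The two-sided exact permutation test gave p = 0.0119, the smallest it allows, at both times. Such a p requires groups that do not overlap. At T0 the TMs lay wholly above WT in 8.40% of all genes and below in 4.98%, and at T6 in 10.6% and 6.78%.

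NAP (AT1G69490), a NAC factor that promotes leaf senescence, read 6.66, 4.11 and 4.96 FPKM in WT at T0, 13.3, 14.2 and 12.7 in TM1 and 9.67, 9.28 and 14.3 in TM2. At T2 WT stood at 1.18, 1.94 and 0.345, while TM1 stood at 5.19, 6.35 and 4.63 and TM2 at 2.73, 3.39 and 4.26. At T4 WT stood at 22.5, 23.1 and 22.0, 19.5 times its T2 mean, TM1 at 10.4, 8.30 and 11.1, and TM2 at 2.35, 2.84 and 2.2. The order of the groups at T4 was WT, TM1, TM2 with no overlap. NAP was higher at T0 by 1.23 and 0.95 (limma adjusted p = 2.0e-04 and 0.00179) and lower at T6 by differences of -0.82 and -2.27 (0.0174 and 3.8e-09). The T6 call was lost without any 1 library letter, at mean differences of -1.71 without A, -1.40 without B and -1.52 without C, and the T0 call was lost without C at 0.99.

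NAC019 (AT1G52890) had 0 reads in the 3 WT libraries at T0, so no fold is given. TM1 then read 1.1, 1.44 and 0.894 FPKM and TM2 0.993, 1.24 and 1.01, differences of 1.09 and 1.06 that depend on the pseudocount (limma adjusted p = 5.6e-04 and 4.1e-04). At T6 the isolates lay on opposite sides of the WT libraries of 3.99, 4.27 and 3.39, with TM1 at 9.15, 8.84 and 7.53 and TM2 at 2.85, 2.06 and 3.69. NAC102 (AT5G63790), a NAC factor of low oxygen responses, read 10.7, 10.4 and 11.8 in WT at T0 and 15.3 to 21.7 in the TMs. It was higher at T0 by 0.71 and 0.67 (limma adjusted p = 9.1e-04 and 8.6e-04), a call lost without B at 0.64, and was not called at T6. Of the 14 listed leaf senescence genes, NAP and NAC019 were members, 5 were higher and 0 lower at T0, and 5 were higher and 1 lower at T6. The median of that list at T6 was 0.47, on the other side of 0 from the members.

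**Figure D5:**
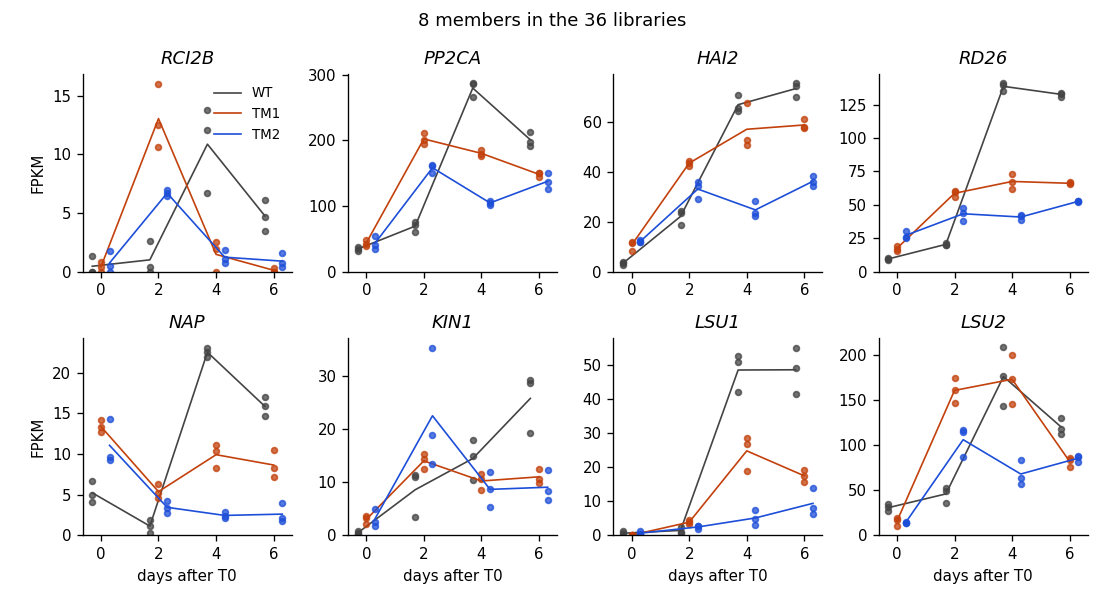
FPKM of RCI2B, PP2CA, HAI2, RD26, NAP, KIN1, LSU1 and LSU2 against days after T0; points are single libraries and lines join the means of the 3 libraries of WT, TM1 and TM2. In all 8 panels the TM lines cross the WT line between T2 and T4, and at T4 TM2 is the lowest line in each.

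RD22 (AT5G25610), an ABA and dehydration induced protein of the cell wall, was among the most abundant members. At T0 it read 226, 249 and 261 FPKM in WT, 502, 568 and 480 in TM1, and 739, 750 and 678 in TM2. At T2 WT stood at 714, 619 and 722, TM1 at 1302, 1270 and 1353, and TM2 at 913, 931 and 926. At T4 WT stood at 526, 490 and 460, TM1 at 368, 345 and 303, and TM2 at 345, 376 and 345. The WT mean was lower at T4 than at T2, 0.718 of it, so that RD22 belonged to the members whose crossing came from the TMs. At T6 WT read 738, 794 and 696 and all 6 TM libraries 411 to 472. RD22 was higher at T0 by 1.07 ± 0.08 and 1.56 ± 0.08 (limma adjusted p = 4.3e-11 and 2.0e-15) and lower at T6 with -0.78 ± 0.08 and -0.71 ± 0.08 (3.4e-08 and 1.2e-07).

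KIN1 (AT5G15960), a small cold and ABA induced protein, had 1, 2 and 1 reads in the WT libraries at T0 and 1.77 to 4.96 FPKM in the TMs. It was higher there by 1.44 and 1.42 on the log2 scale (limma adjusted p = 0.0030 and 0.00171), a difference that depends on the pseudocount and was not called without A, at 1.36. At T2 WT read 11.0, 11.4 and 3.45 and the TMs 12.5 to 35.4, and at T4 WT read 15, 10.5 and 18.0 and the TMs 5.33 to 11.9, where 1 of the WT libraries lay inside the TM range. At T6 WT read 28.8, 19.3 and 29.4, TM1 12.6, 10.6 and 9.96 and TM2 6.63, 12.3 and 8.36. KIN1 was lower at T6 by differences of -1.14 and -1.43 (limma adjusted p = 0.0280 and 0.00288), a call lost without A at -1.15 and without C at -1.13. Its neighbor KIN2 is nearly identical and stood at a mean of 2145 FPKM, so that the split of reads between them is uncertain.

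RCI2B (AT3G05890, chromosome 3), a small hydrophobic membrane protein induced by cold and salt, had the largest difference of any member at T2, 2.59, and at T4, with -2.40, was second to ORA47 at -2.52. At T2 it read 0, 0.389 and 2.59 FPKM in WT, 10.6, 16.0 and 12.5 in TM1, and 6.71, 6.94 and 6.40 in TM2. At T4 it read 6.66, 13.8 and 12.1 in WT, 0, 1.89 and 2.49 in TM1, and 1.86, 1.07 and 0.736 in TM2. At T6 WT stood at 3.42, 4.66 and 6.10, TM1 had 1, 0 and 0 reads, and TM2 stood at 0.686, 1.60 and 0.358. RCI2B was lower at T6 by differences of -2.36 ± 0.43 and -1.63 ± 0.43 (limma adjusted p = 2.4e-04 and 0.00828, exact permutation p = 0.0119). The call was lost without B at -2.09 and without C at -1.69, and also with a pseudocount of 0.1 at -3.67. With a pseudocount of 5 it was called at -0.82, so the size of the difference depends on the pseudocount, and no fold is given against TM1. Its neighbor RCI2A, of similar sequence, had mean differences of 1.68 at T2 and -0.35 at T4 and did not meet the rule.

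AT4G30650, of the same family of low temperature and salt responsive proteins, read 44.1, 54.7 and 65.9 FPKM in WT at T2 against 162 to 240 in the TMs, and 147, 192 and 295 at T4 against 106 to 159. In all, 3 of the 5 listed genes of this family were members, where the rule kept 0.772% of all genes. The last was AT2G24040 at a mean of 4.48 FPKM. COR413IM1 (AT1G29395), a cold regulated protein of the chloroplast inner membrane, read 44.6, 52.0 and 44.0 in WT at T2 and 73.5 to 83.2 in the TMs. At T4 it read 110, 100 and 122 in WT and 50.2 to 69.1 in the TMs, and at T6 149, 141 and 147 against 80.0 to 106. It was lower at T6 by differences of -0.62 and -0.72 (limma adjusted p = 4.4e-04 and 4.2e-05), a call lost without C at -0.58, and its T0 difference was not called. Of the 20 listed cold and ABA response genes, KIN1, RD22, HAI2, NCED3 and RD26 were members. On that list 12 were higher and 0 lower at T0, and 0 were higher and 6 lower at T6, with medians of 0.85 at T0 and -0.21 at T6. At T2, 12 of the 20 met the limit of 0.5 upward, and at T4, 9 met it downward. The ABA response genes RD29A, RD29B and RAB18 had T4 differences of 0.15, 0.23 and -0.08 and were not members.

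Members from rapid responses to touch, cold and other stress were low at T2 in WT. ZAT6 (AT5G04340), a zinc finger repressor, read 0.976, 1.31 and 2.52 FPKM in WT at T2 and 3.52 to 6.14 in the TMs. At T4 it read 36.7, 37.3 and 42.8 in WT, 25.3, 21.4 and 23 in TM1 and 6.13, 6.59 and 8.97 in TM2, so that the WT mean was 24.3 times that at T2. ORA47 (AT1G74930), an AP2/ERF factor linked to wound and jasmonate responses, read 4.05, 2.33 and 1.65 in WT at T2, where the TM range of 2.93 to 7.58 overlapped it. At T4 WT stood at 47.5, 37.7 and 37.6 and the TMs at 2.64 to 12.4, the WT mean being 5.50 times that of the TMs. At T6 ORA47 read 16.1, 21.3 and 19.3 in WT and 4.71 to 9.25 in the TMs. It was lower by -1.19 and -1.62 (limma adjusted p = 6.9e-04 and 5.2e-06), a call lost without B at -1.24.

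STZ (ZAT10, AT1G27730), another zinc finger repressor, and DREB1A (CBF3, AT4G25480), which drives cold induced genes, were members whose groups overlapped, STZ at T2 and DREB1A at both T2 and T4. STZ read 1.21, 1.37 and 2.44 FPKM in WT and 1.83 to 6.40 in the TMs at T2, and 14.8, 16.7 and 14.3 against 4.23 to 10.9 at T4. DREB1A read 2.76, 3.45 and 1.67 against 2.93 to 7.52 at T2, and 7.41, 6.04 and 9.87 against 2.23 to 8.53 at T4. Neither was called at T0 or T6. TINY2 (AT5G11590), of the same family as DREB1A, was lower at T0 by -0.95 and -1.02 (limma adjusted p = 0.0128 and 0.00403), with 1.71, 1.38 and 1.25 in WT and at most 0.532 in the TMs. That call was lost without any 1 letter, at -0.91, -0.99 and -1.05 without A, B and C.

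TCH4 (AT5G57560), a touch induced enzyme that remodels xyloglucan in the cell wall, met the rule through TM1 and with TM2 almost at the WT level at T2. At T2 WT read 6.08, 6.53 and 4.79 FPKM, TM1 18.4, 13.9 and 11.8, and TM2 5.11, 7.41 and 5.12. At T0 it read 57.3, 49.8 and 47.2 in WT, 21.8, 17.7 and 21.0 in TM1, and 9.81, 10.2 and 8.65 in TM2. TCH4 was lower at T0 by -1.31 ± 0.20 and -2.31 ± 0.20 (limma adjusted p = 2.2e-05 and 2.5e-10). It was not called at T6, where TM1 differed by -0.18 and TM2 by -1.30. Of the 22 listed touch and stress response genes, 4 were members. On that list 1 was higher and 5 were lower at T0, 2 were higher and 2 lower at T6, and the median was -0.34 at T0 and -0.18 at T6.

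Among heat shock genes, HSP70 and MBF1C of the 10 listed were members, with HSFA6B described in addition. HSP70 (AT3G12580), a chaperone, read 1.25, 0.811 and 0.249 FPKM in WT and 1.83 to 4.00 in the TMs at T2. At T4 it read 5.74, 5.0 and 4.40 against 0.953 to 3.2, and the groups did not overlap at either time. MBF1C (AT3G24500), a coactivator of heat tolerance, was higher at T0 by 1.01 and 0.77 (limma adjusted p = 0.00550 and 0.0234). Its T0 libraries read 4.37, 10.8 and 8.22 in WT, 13.8, 21.9 and 13.1 in TM1 and 9.18, 15.2 and 16.3 in TM2, so the groups overlapped, and the call was lost without any 1 letter at 0.74, 0.98 and 0.95. HSFA6B (AT3G22830), a heat shock factor that acts with ABA, read 0.113, 0.463 and 0.123 in WT and 0.813 to 1.85 in the TMs at T2, and 3.32, 3.75 and 1.91 against 0.127 to 0.838 at T4. At T6 it read 2.1, 1.22 and 2.26 in WT and 0.0817 to 0.842 in the TMs. It was lower by -0.86 and -1.20 (limma adjusted p = 0.00886 and 1.4e-04), a call lost without A at -0.85 and without C at -1.04.

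The sulfur members LSU1, LSU2 and AT1G04770 (SDI2) respond to low sulfur supply, and SDI2 represses glucosinolate synthesis. LSU1 (AT3G49580) was near 0 at T0, with 3, 2 and 0 reads in WT, and read 2.52, 0.827 and 1.1 FPKM in WT at T2 against 1.85 to 4.42 in the TMs. At T4 WT stood at 52.8, 50.9 and 42.0, 32.8 times the T2 mean, TM1 at 28.7, 19.0 and 26.8 and TM2 at 7.38, 4.91 and 3.13. The crossing of LSU1 came from the low and overlapping T2 levels and from the WT level at T4. At T6 it read 49.3, 41.5 and 55.1 in WT and 6.26 to 19.1 in the TMs. LSU1 was lower by -1.42 ± 0.28 and -2.31 ± 0.28 (limma adjusted p = 7.2e-04 and 2.4e-07), a call lost without B at -1.82.

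LSU2 (AT5G24660) was more abundant and crossed WT more than once. At T0 it read 26.7, 34.3 and 31.2 FPKM in WT, 16.7, 10.7 and 19.8 in TM1 and 15.1, 13.5 and 14.0 in TM2, and was lower by -0.96 ± 0.17 and -1.06 ± 0.17 (limma adjusted p = 1.3e-04 and 1.4e-05). At T2 WT read 52.6, 35.8 and 49.4, TM1 161, 146 and 174 and TM2 117, 114 and 86.6. At T4 the WT libraries of 176, 208 and 143 overlapped TM1 at 173, 145 and 200, while TM2 stood at 82.9, 63.5 and 57.4. LSU2 was not called at T6, with limma adjusted p of 0.0383 and 0.0506. It was called lower there with the library letter as a replicate block (-0.52), with a filter on mean FPKM (-0.52), with only the T6 libraries (-0.52), with voom (-0.51) and with median ratio or quantile scaling (-0.60 and -0.53).

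SDI2 (AT1G04770) read 13.9, 14.6 and 15.3 FPKM in WT at T2, 24.5, 26.9 and 26.0 in TM1 and 19.3, 22.4 and 19.5 in TM2. At T4 it read 79.2, 73.2 and 77.1 in WT, 31.0, 34.2 and 29.9 in TM1 and 14.3, 14.8 and 17.5 in TM2, and the groups did not overlap. It was the member that was lower at both tested times. At T0 the differences were -0.94 and -0.39 (limma adjusted p = 3.7e-06 and 0.0266), a call lost without A at -0.69 and without C at -0.53. At T6 they were -0.68 and -0.76 (4.5e-04 and 7.8e-05), lost without A at -0.65. Of the 13 listed sulfur and glucosinolate genes, 1 was higher and 2 lower at T0, and 0 were higher and 5 lower at T6. APR1, an enzyme of sulfate reduction, lay just outside the rule. LSU3 had T2 and T4 differences of 0.36 and -2.18 and was called lower at T0 and T6. LSU4 went the other way, at -0.27 and 0.22, with no call. SDI1, APR2 and APR3 had T2 differences of 0.22, 0.02 and -0.18 and were lower at T6. None of these met the rule.

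Of 269 listed genes matched by annotation as RING or U-box proteins, 9 were members (3.35%, where the rule kept 0.772% of all genes). The match did not take in the member PUB19, so these counts are incomplete for U-box proteins. PUB19 (AT1G60190), a U-box ligase of ABA and drought responses, read 3.27, 3.19 and 3.91 FPKM in WT at T2 and 7.07 to 11.0 in the TMs. At T4 WT stood at 25.7, 28.7 and 26.1, TM1 at 26.2, 24.4 and 22.7 and TM2 at 5.38, 9.76 and 6.99, so that TM1 overlapped WT. PUB19 was lower at T6 by -0.59 and -1.54 (limma adjusted p = 0.0426 and 1.9e-07), a call lost without B at -0.85 and without C at -1.08. AT1G02610, a RING protein, read 1.95, 4.6 and 4.58 in WT at T0 and 10.2 to 13.9 in the TMs. It was higher by 1.44 and 1.59 (limma adjusted p = 1.0e-05 and 9.1e-07), or 3.23-fold, and was not called at T6. ATL8 (AT1G76410), a RING protein, read 3.25, 2.85 and 5.22 in WT and 8.23 to 13.0 in the TMs at T2, and 24.1, 22.0 and 15.6 against 7.07 to 10.7 at T4, with no call at T0 or T6.

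AT1G80440 and AT2G44130 encode kelch repeat F-box proteins that target phenylalanine ammonia lyase, the entry enzyme of phenylpropanoid synthesis, for breakdown. AT1G80440 read 32.8, 27.9 and 29.9 FPKM in WT at T0, 66.2, 77.9 and 57.0 in TM1 and 105, 96.8 and 71.5 in TM2. It was higher by 1.12 ± 0.11 and 1.55 ± 0.11 (limma adjusted p = 1.5e-08 and 5.0e-12), while its T6 difference was not called. At T4 it stood at 102, 91.7 and 95.5 in WT and at 44.0 to 63.8 in the TMs, below every WT library. AT2G44130 read 13.4, 7.81 and 11.8 in WT at T0 and 23.9 to 36.4 in the TMs, and 22.6, 25.1 and 24.6 at T6 against 10.2 to 17.9. It was higher at T0 by 1.16 and 1.64 (limma adjusted p = 1.8e-06 and 9.2e-10) and lower at T6 by -0.72 and -0.81 (0.00165 and 2.8e-04), the latter lost without B at -0.63. MYBL2 (AT1G71030), a repressor of anthocyanin synthesis, had the same pattern. It read 110, 91.2 and 73.4 in WT at T0 against 136 to 181 in the TMs, and 104, 92.9 and 105 at T6 against 43.4 to 70.7. It was higher at T0 by 0.73 and 0.91 (limma adjusted p = 8.2e-04 and 2.2e-05) and lower at T6 by -0.65 and -0.99 (0.00344 and 9.2e-06), lost without B at -0.91 and without C at -0.78.

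The leaf surface and cell wall members included 4 of the 43 listed GDSL-like lipase genes (9.30%, where the rule kept 0.772% of all genes). AT3G16370, a GDSL-like lipase, read 36.9, 40.2 and 55.9 FPKM in WT at T2, 152, 184 and 133 in TM1 and 94.6, 85.7 and 121 in TM2. Its T4 libraries read 94.2, 112 and 131 in WT and 34.5 to 57.1 in the TMs, and at T6 104, 88.0 and 91.1 against 30.3 to 39.7. The T6 ratio of WT to TM means was 2.58, and the gene was lower by -1.33 ± 0.16 and -1.36 ± 0.16 (limma adjusted p = 2.8e-07 and 1.2e-07, exact permutation p = 0.0119). FLA16 (AT2G35860), a fasciclin-like arabinogalactan protein, read 17.5, 20.5 and 23.3 in WT at T2 against 29.6 to 34.1, and 21.9, 21.4 and 21.5 at T4 against 7.63 to 16.3. It was lower at T6 by -1.36 and -1.38 (limma adjusted p = 1.2e-07 and 6.1e-08). CER2 (AT4G24510), which is needed for very long chain wax synthesis, was higher at T0 by 0.51 and 1.17 (limma adjusted p = 0.0104 and 6.2e-08), with 16.1, 18.6 and 11.7 in WT and 20.8 to 38.1 in the TMs. That call was lost without A at 0.83 and without C at 0.73, and CER2 was not called at T6.

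A sum of epidermis markers lay above WT in the TMs at T0 and T2 and overlapped WT at T4 and T6. It mainly follows CER6 and FDH, which reached 283 and 259 FPKM, while ATML1 and GL2 reached at most 26.3 and 4.08. The summed FPKM of 4 epidermis and trichome markers was 158 to 168 in WT and 252 to 410 in the TMs at T0, and 251 to 285 and 384 to 558 at T2. At T4 the ranges were 232 to 242 and 209 to 277, and at T6 244 to 260 and 215 to 274, so they overlapped at the later times. The summed mesophyll markers were 6119 to 6978 in WT and 5478 to 6184 in the TMs at T2, and 5262 to 5431 and 4334 to 4974 at T4. The 4 guard cell markers summed to 45.0 to 50.5 in WT and 38.0 to 44.7 in the TMs at T2, and to 33.4 to 35.7 and 37.1 to 44.9 at T4, the opposite order to the members at both times. The part of cell composition in the members' differences was not tested.

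The 5 most abundant members included LHB1B1 and AT1G09310. LHB1B1 (AT2G34430) encodes a chlorophyll binding protein of the photosystem antenna. It read 612, 731 and 703 FPKM in WT at T2, 1789, 1723 and 1660 in TM1 and 1152, 1298 and 1297 in TM2. At T4 WT stood at 1639, 1711 and 2108, TM1 at 1141, 1364 and 1292 and TM2 at 939, 868 and 953. WT had thus come down from 1726 to 2080 at T0 and stood high again at T4, while TM1 remained close to its T0 level at T2. LHB1B1 was lower at T6 by -0.55 ± 0.10 and -0.77 ± 0.10 (limma adjusted p = 3.5e-04 and 1.2e-06) and not called at T0. LHB1B2, a near copy beside it at a mean of 2182 FPKM, had a T2 difference of -0.11 and was no member, and how the counting divided reads between the copies is uncertain. LHCB4.2 (AT3G08940), a minor antenna protein, was lower at T6 by -0.47 and -0.91 (limma adjusted p = 0.0338 and 1.6e-05), a call lost without any 1 letter at -0.53, -0.86 and -0.67. No gene of the 17 on the light harvesting and carbon fixation list was a member.

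AT1G09310, an uncharacterized protein of a family of unknown function, read 1903, 1853 and 1890 FPKM in WT at T2 against 2404 to 2981 in the TMs. Its T4 libraries read 2469, 2481 and 2143 in WT and 1298 to 1512 in the TMs. At T6 WT stood at 2840, 2751 and 2752 and the TMs at 1242 to 2236, with the highest value in a single TM2 library and the other TM libraries at most 1478. It was lower at T6 by -0.97 ± 0.12 and -0.83 ± 0.12 (limma adjusted p = 3.6e-07 and 3.7e-06). ELP (AT1G12090), an extensin-like protein, read 179, 216 and 207 in WT at T2 against 255 to 333, and 366, 392 and 460 at T4 against 202 to 286. It was lower at T6 by -0.46 and -1.24 (limma adjusted p = 0.0111 and 3.0e-09), a call lost without B at -0.80. DYL1 (AT1G28330), a dormancy associated protein, read 90.8, 94.0 and 107 in WT at T2 against 129 to 194 and 245, 250 and 288 at T4 against 148 to 216, and was not called at T0 or T6.

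Growth regulators were few and low. GRF1 and GRF3 were 2 of the 5 listed growth-regulating factors, which promote cell division in young leaves, where the rule kept 0.772% of all genes. GRF3 (AT2G36400) read 3.27, 1.5 and 1.88 FPKM in WT and 2.87 to 4.35 in the TMs at T2, and 6.97, 6.79 and 5.72 against 3.0 to 5.76 at T4, with overlap at both times. MIR157c, whose product is shown above, read 5.25, 5.17 and 5.74 in WT and 6.91 to 20.7 in the TMs at T2, and 10.5, 8.75 and 9.73 against 2.36 to 6.70 at T4. MIR156b had 0 FPKM in all 3 WT libraries at T2 and 0 in 2 TM libraries, so that its place among the members rests on few reads. None of these was called at T0 or T6.

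TM1 and TM2 differed from each other in some members. At T0, 6 members (4.00%) were called between the isolates, against 2.08% of all genes, and 1 of them, TCH4, was higher in TM1. At T6 the calls were 13 members (8.67%), against 1.60%, of which 11 were higher in TM1, among them NAP by 1.45, NAC019 by 1.32, PUB19 by 0.95, ELP by 0.77 and HAI2 by 0.69 on the log2 scale. Over all 150 members, the TM1 level lay above TM2 in 72 and below it in 74 at T0, and above it in 108 at T2 and 91 at T4, with median differences from WT of 0.78 and 0.66 at T2 and of -0.67 and -0.80 at T4 in TM1 and TM2. The members lower in TM1 at T6 were MBP1, a myrosinase binding protein, by a difference of -1.59, and AT5G11550, by -0.54.

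Part of the set rests on low counts and on values near the limits. Of the 150 members, 13 had a mean under 1 FPKM, 32 had at least 1 group with no library above 3 reads, and in 19 this was a T2 or T4 group. MIR166b was at or under 3 reads in every library of all 12 groups. AT1G05136, of unknown function, was among the 12 members with the largest smaller difference, at 1.29 at T2 and -1.04 at T4, but its WT libraries had 0 reads at T0 and T2 and 3, 2 and 3 at T4, and its TM1 libraries had 0 at T4. AT1G51402, also uncharacterized, read 3.12, 1.42 and 3.03 FPKM in WT and 8.07 to 19.7 in the TMs at T2, and 9.28, 14.4 and 28.4 against 3.81 to 8.59 at T4. Neither was called at T0 or T6. The members closest to the limit from inside were AT1G75800 with 0.50 at T2 and -0.52 at T4, AT3G06330 with 0.77 and -0.50, and AT3G01960 with 0.50 and -0.83. Just outside were AT4G10030 with -0.4997 at T4, APR1 with 0.4997 at T2 and AT4G15630 with -0.4981 at T4. When 1 library letter was left out, 111, 103 and 96 of the 150 genes still met the rule without A, B and C. Other settings ended single calls too. A pseudocount of 0.1 ended the T6 calls of NAP (-1.76), PUB19 (-1.16), KIN1 (-1.36), LSU1 (-1.95) and HSFA6B (-2.12), and a pseudocount of 5 those of HSFA6B at T6 (-0.34) and of NAC019 (0.29), TINY2 (-0.30), KIN1 (0.55) and AT1G04770 (-0.42) at T0. A fit of the libraries of the time point alone ended the T6 calls of NAP (-1.54), PUB19 (-1.07) and LHCB4.2 (-0.69) and the T0 calls of MBF1C (0.89), AT1G04770 (-0.67), LSU2 (-1.01) and CER2 (0.84). Voom ended the T0 calls of KIN1 (2.29), MBF1C (0.95) and AT1G04770 (-0.80), quantile normalization the T6 call of ELP (-0.70), and moderation without a trend that of LHCB4.2 (-0.69). AT3G06330 was higher at T0, a call lost without any 1 letter at 0.66, 0.56 and 0.66, with voom at 0.88, with the T0 libraries alone at 0.62 and with a pseudocount of 5 at 0.27. Under all 9 settings other than a changed limit, 34 members met the rule, among them RD26, PP2CA, HAI2, NAP, RCI2B, ZAT6, PUB19 and AT3G16370.

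By annotation, 136 members were protein coding genes and 28 belonged to the 2100 listed genes described as uncharacterized or hypothetical. The members lay on chromosomes 1 to 5 in numbers of 38, 22, 32, 22 and 36, which is 0.740% to 0.831% of the listed genes of each chromosome. Only 3 pairs of members lay within 10000 bases of each other. Their median gene length was 1444 bases, against 2353 for all listed genes, and their median level of 7.44 FPKM was close to the 6.84 of all genes.

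Of the 49 genes of the opposite rule, 3 (6.12%) were higher in the TMs at T6 by limma, against 2.12% of all genes, and 0 were lower, against 2.02%. In WT 15 of them (30.6%) fell from T0 to T6, against 11.9% of all genes, and 1 (2.04%) rose, against 18.5%. Their difference from the members was not tested. Of the 20 pathway lists, 14 held no member. The 20 circadian clock genes held no member and had no call at T0 or T6 in either direction, with list medians of 0.06 at T2 and -0.10 at T4. The jasmonate, salicylic acid, auxin, cytokinin and ethylene lists also held none.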

How the data were processed

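Leaf 6 of WT, TM1 and TM2 was sampled at T0, T2, T4 and T6, with 3 libraries from each pool of 10 leaves. The authors made strand specific 3′ libraries (BrAD-seq), aligned the reads with Rsubread to TAIR10, as the submitters' processing notes also name it, derived FPKM in NOISeq and removed low genes by HTSFilter, and the deposited table holds FPKM for 19437 genes. Because short 3′ reads are divided by gene length, FPKM compares a gene between libraries better than genes with each other. All columns were assigned from the sample labels, and 0 were left over.

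FPKM values were used as deposited, with a pseudocount of 1 on the log2 scale and no further filter. Every value proved to be a whole number of reads to within 0.001 reads (19437 of 19437 genes), which gave library depths of 4407618 to 11714474 reads. A floor of 3 reads was set to mark groups with low counts. Depth sets counting error only.

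Differences were tested with limma 3.58.1 (R 4.3.3) on all 36 libraries as 12 groups, eBayes with trend, and Benjamini-Hochberg adjustment over all genes within each contrast. A call needed adjusted p under 0.05 for TM1 and for TM2, equal signs and a mean difference of at least 0.5. The fit was tested on simulated data beforehand. Single members were also examined by exact permutation. Tables and figures used Python 3.11.15, numpy 2.4.6, pandas 2.3.3 and matplotlib 3.10.9. Sequences and gene names came from RefSeq TAIR10.1, which held 19332 of the identifiers.

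The members, the pathway lists and the marker lists were chosen with earlier results of these data known. Every gene family counted held a member, and its share rests on the T2 and T4 values of the rule. Members were named by rule: the 12 with the largest smaller difference of T2 and T4, those on a pathway list, the 5 largest called in each direction at T0 and at T6, the 5 most abundant, and the 3 nearest the limit on each side. The rule gave 38 members. Others, among them 7 tested at T0 and T6, were chosen after their values were seen. Alternatives were other pseudocounts, filters, scalings, limits and fits, a replicate block, voom on the recovered reads and omission of each library letter.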

Additional observations from a re-analysis of the deposited data

Results flagged for a closer look

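Between T0 and T6, time points outside the rule, the difference of the TMs from WT was itself tested for a change. By limma it fell in 29 members and rose in 1. The following values are the T6 difference minus the T0 difference, as the mean of the isolates on log2(FPKM + 1), for members described above. Among NAC and PP2C genes they were -2.28 for RD26, -2.63 for NAP, -1.05 for NAC102, -2.18 for HAI2 and -0.81 for PP2CA. In the dehydration and cold group they were -2.71 for KIN1, -2.06 for RD22, -2.13 for RCI2B and -0.90 for COR413IM1. Among transcription factors and turnover proteins they were -2.05 for ORA47, -1.64 for MYBL2, -1.27 for PUB19, -1.71 for AT1G02610, -2.17 for AT2G44130 and -1.72 for AT1G80440. In the surface, wall and leaf group they were -1.27 for AT3G16370, -1.39 for CER2, -0.84 for FLA16, -1.18 for AT1G09310 and -0.71 for LHB1B1. TCH4 alone rose, by 1.07, from a T0 level that was lower in the TMs.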

How the results depend on the processing

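The limits of the rule and the scale decided how many genes were members. The count of 150 was 429 with a pseudocount of 0.1, 43 with 5, 430 on voom log2 counts per unit depth, 283 with a limit of 0.4 and 40 with 0.7. The opposite rule gave 161, 11, 188, 110 and 11 under the same settings, against 49. Median ratio scaling gave 115 and 66 and quantile normalization 111 and 73, so the excess of members over opposite genes was smaller under these scalings. Omitting a library letter gave 172 to 178 and 58 to 74 genes. With only the libraries of the time point in the fit, 13 members were higher and 2 lower at T0. The shares of all genes were 1.86% and 0.772%. Median ratio scaling gave 7 lower at T0 and a pseudocount of 5 gave 2, against 3.42% and 1.59% of all genes. A required difference of 1 in each isolate gave 9 higher and 1 lower at T0 and 9 lower at T6. Over all genes these shares were 0.869%, 0.520% and 0.597%. It also gave 2 that fell in WT from T0 to T6, against 4.02%. In the TMs 28 rose and 5 fell, against 4.17% and 2.92%. A pseudocount of 5 gave 3 that fell in WT, against 7.14% of all genes. Omitting a letter gave 16 to 17 higher and 2 to 3 lower at T0, 0 higher and 14 to 20 lower at T6, 83 to 90 that rose and 3 to 4 that fell in WT, and 41 to 44 that rose and 7 to 8 that fell in the TMs. For the moved difference, whose alternatives were chosen after seeing the data, it gave 0 upward and 18 to 20 downward. Causes of these shifts were not tested, except that omission leaves fewer libraries. Among the 90 values of single members at T0 and T6, the replicate block changed only the call of LSU2 at T6, to lower at -0.52. Counts over all members moved slightly. With the library letter as a replicate block, the counts were 22 higher and 5 lower at T0, 0 and 30 at T6, 94 and 6 in WT, 47 and 9 in the TMs, and 1 and 29 for the moved difference. The letters name parts of a pool, and in 36 pairs of groups same-letter deviations correlated at -0.06 to 0.09, so they pair nothing. Of 90 values of single members at T0 and T6, none reversed, with 64 calls lost and 19 gained over all their alternatives. Low reads limit the members at the floor, and with 1 pool per group no setting shows the spread between plants.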
